A study of Mus musculus with 2 samples.

Results

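The genes described here are the 3 peroxisome proliferator-activated receptors (PPARs) *Ppara*, *Ppard* and *Pparg* and 5 genes with direct links to them, *Fabp5*, *Angptl4*, *Pdk4*, *Cpt1a* and *Plin2*. They were taken by the gene name that the scanner files give each probe, which found 8 genes, 11 probes and 29 spots per array, of 30133 genes, 39429 probes and 43020 spots other than controls. The study compared the skin of newborn *Pnpla1*-/- mice, which cannot make the patatin-like phospholipase domain enzyme PNPLA1, with that of *Pnpla1*+/+ mice, and asked which transcripts differ in skin that lacks this enzyme of barrier lipid synthesis. Total RNA of 6 animals per genotype was pooled and hybridized to 1 Agilent mouse array with the dye Cy3, so there were 2 arrays in all. Both groups were C57BL/6N mice at postnatal day 0, and neither received a treatment. Per the methods, the mice carried the *Pnpla1* tm1a(KOMP)Wtsi knockout-first allele in the germline, so its effect was not restricted to keratinocytes. The lacZ reporter and the neomycin selection marker had been excised with flippase, and the controls came from the same litters. With 1 array of pooled RNA for each genotype, no difference on these arrays has a replicate check and no test between genotypes could be made; each value describes these 2 pools.

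PPARs are nuclear receptors that bind DNA as partners of retinoid X receptors (RXRs) and are switched on by fatty acids and their derivatives. PPAR-alpha is best known for driving fatty acid oxidation, PPAR-gamma for driving fat storage in adipocytes and sebocytes, and PPAR-delta is the most abundant form in epidermal keratinocytes, where it takes part in differentiation, lipid barrier formation and wound repair. FABP5, the epidermal fatty acid binding protein, carries ligands to PPAR-delta, and *Angptl4*, *Pdk4*, *Cpt1a* and *Plin2* are induced by PPAR agonists in many tissues.

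Each spot intensity was divided by the 75th percentile of its array, 2108 for *Pnpla1*+/+ and 1734 for *Pnpla1*-/- skin, and every difference given is the log2 value of *Pnpla1*-/- less that of *Pnpla1*+/+ skin. Of all spots, 71.7% in *Pnpla1*+/+ and 73.3% in *Pnpla1*-/- skin were well above background, the scanner software's call that a signal is clear of the local background, and no spot was saturated. All 11 probes of the 8 genes were well above background on both arrays, and none of their spots carried an outlier flag. Technical error was read in 2 ways. The scanner software gives an error for each spot on each array. The errors of the 2 arrays were combined as the square root of their summed squares, called the scanner error here. It was between 0.204 and 0.216 on the log2 scale for the member probes. For *Ppard*, *Fabp5*, *Angptl4* and *Plin2* it was 0.204 alike, so it does not measure the spread of a single probe. The spread of repeated spots, a median SD of 0.04 over 309 probes with at least 8 spots, covers only the spotting on these arrays. *Pnpla1* itself had intensities of 579 (*Pnpla1*+/+) and 114 (*Pnpla1*-/-), a difference of -2.07; where this probe lies relative to the altered part of the gene was not analysed here.

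The tissue label was checked against marker genes. All 9 keratinocyte markers were well above background on both arrays, with *Krt10* the brightest on each. The 6 fibroblast, 6 endothelial and 8 skeletal muscle markers were also all well above background on both arrays, so the RNA held more than epidermis, the word that the deposited description also uses. In such bulk RNA, fewer cells of a type and less RNA per cell cannot be told apart.

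The sequences before the start sites of *Ppard*, *Cpt1a* and *Plin2* are printed because these were the members with the highest difference, the lowest and the one smallest in size. They are the 250 bases upstream of the start, from RefSeq on GRCm38.p6, read on the strand of the gene. Capitals mark the half-site AGGTCA, the core to which PPARs and other nuclear receptors bind, or its reverse complement. The table held 8 start sites for 6 of the 8 genes, and *Fabp5* and *Angptl4* were not among them.
*Ppard*, chr17:28232504-28232753, plus strand: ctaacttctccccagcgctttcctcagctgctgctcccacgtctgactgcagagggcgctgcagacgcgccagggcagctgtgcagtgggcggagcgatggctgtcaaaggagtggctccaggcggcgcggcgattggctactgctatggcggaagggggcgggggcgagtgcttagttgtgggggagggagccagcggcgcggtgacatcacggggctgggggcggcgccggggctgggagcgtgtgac
*Cpt1a*, chr19:3323051-3323300, plus strand: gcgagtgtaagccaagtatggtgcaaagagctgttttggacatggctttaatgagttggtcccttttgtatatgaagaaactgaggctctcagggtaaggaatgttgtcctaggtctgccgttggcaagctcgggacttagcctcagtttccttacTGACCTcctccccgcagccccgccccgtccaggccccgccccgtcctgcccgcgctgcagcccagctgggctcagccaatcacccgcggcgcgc
*Plin2*, chr4:86670060-86670309, minus strand: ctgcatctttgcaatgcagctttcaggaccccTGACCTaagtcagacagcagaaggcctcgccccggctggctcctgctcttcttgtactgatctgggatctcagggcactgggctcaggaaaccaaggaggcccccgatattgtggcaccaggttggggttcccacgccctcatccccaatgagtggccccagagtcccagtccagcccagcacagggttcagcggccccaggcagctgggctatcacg
The half-site began 94 bases before the start of *Cpt1a* and 218 bases before that of *Plin2*, counted along the printed strand, and it was not found in the window of *Ppard*. It also stood 28 and 9 bases before 2 of the 3 starts of *Pparg*, and not in the windows of *Ppara* or *Pdk4*. Over all 32851 promoters of the same length, 14.0% held it on either strand. The tandem form AGGNCANAGGNCA, a loose form of the PPAR response element in which N is any base and which holds the half-site where an N inside a repeat is T, was in 0.338% of all promoters and in none of the 8 windows. The 3 members with a half-site had log2 differences of -0.50 to 0.37 and the 3 without one of 0.34 to 1.27. A match to these letters is a description and not a bound site, and nothing is read from 6 genes without a test.

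*Ppard* was the member with the largest difference. Its probe, at chr17:28438298-28438357 on mm9, had intensities of 2960 (*Pnpla1*+/+) and 5870 (*Pnpla1*-/-). Divided by the 75th percentile these were 1.40 and 3.39, a log2 difference of 1.27, which is 2.41-fold higher in *Pnpla1*-/- skin beside a scanner error of 0.204. It was the only member past 2-fold, and it stood on 1 probe with 1 spot. Among 20683 genes measured on both arrays, 3.85% had a higher difference than *Ppard*. For comparison, 5.65% of those genes were past 2-fold towards higher and 2.56% towards lower values in *Pnpla1*-/- skin, so 1 of 8 members past 2-fold is a share of 12.5% that rests on a single gene. The *Ppard* difference stayed positive under all alternative scalings, but was under 2-fold when the arrays were left unscaled (0.99) or centred on spike-in RNA (0.91).

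*Pparg*, the receptor of adipocytes and sebocytes, was read by 1 probe spotted 10 times, at chr6:115440213-115440272. Its intensities ran from 4586 to 4966 in *Pnpla1*+/+ and from 4681 to 5308 in *Pnpla1*-/- skin, and the raw ranges overlapped. After scaling, all 10 spots were higher in *Pnpla1*-/- skin, by 0.30 to 0.41, with a mean of 0.37 ± 0.04 (SD over 10 spots of 1 pair of arrays). The difference was small enough for the scaling to set its size: it was 0.0831 unscaled and 0.00481 with spike-in centring.

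*Ppara*, the receptor of fatty acid oxidation, had 3 probes on chromosome 15 that differed among themselves. The brightest, at chr15:85632110-85632169, had intensities of 597 (*Pnpla1*+/+) and 733 (*Pnpla1*-/-), a difference of 0.58. The next, at chr15:85632534-85632593, went from 550 to 494 before scaling, and its scaled difference of 0.13 was smaller than its scanner error of 0.205. The third, at chr15:85637193-85637252, had intensities of 182 and 213 and a difference of 0.51. All 3 probes were above 0 after scaling, but the second was at -0.16 without it, and normexp background correction took the gene from 0.58 to 0.14. Set side by side, the *Ppard* difference exceeded that of *Ppara* by 0.69 and that of *Pparg* by 0.90 on the log2 scale, gaps that a common scaling factor leaves as they are.

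**Figure D1:**
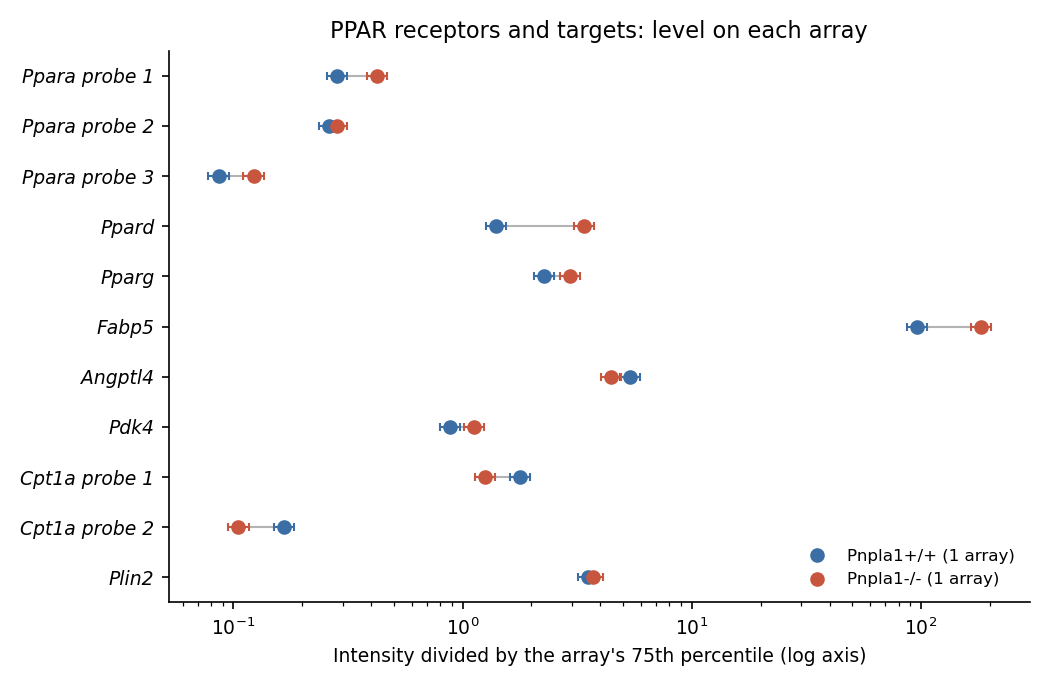
Intensity of each member probe divided by the 75th percentile of its array (log axis), for the 1 *Pnpla1*+/+ array (blue) and the 1 *Pnpla1*-/- array (red), with bars for the scanner software's error and the probes of a gene numbered from the brightest. *Ppard* (1.40 and 3.39) and *Fabp5* (96.1 and 183) have the widest gaps, and the points of *Plin2* (3.53 and 3.73) nearly coincide; levels of different probes cannot be compared.

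*Fabp5*, the ligand carrier, had intensities of 202556 (*Pnpla1*+/+) and 316530 (*Pnpla1*-/-) on its 1 probe, at chr3:10016185-10016244. Its difference was 0.93, or 1.90-fold, just short of 2-fold. Of all genes, 6.37% had a higher difference. Of 718 genes with a mean of at least 5 on the log2 scale above the 75th percentile, 9 genes, *Fabp5* among them, were at least as much higher. *Krt14* and *Krt16*, keratins of basal and of stressed keratinocytes, were among these 9, and this limit on brightness was chosen after the values were seen. RefSeq lists a near-identical *Fabp5* pseudogene, whose transcripts the probe could also take up. Quantile normalization lowered the value to 0.67 and spike-in centring to 0.57.

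The 4 remaining target genes followed no common direction. *Angptl4*, whose secreted product inhibits lipoprotein lipase, had intensities of 11354 (*Pnpla1*+/+) and 7684 (*Pnpla1*-/-) on the probe at chr17:33911880-33911939. Its difference of -0.28 exceeded the scanner error of 0.204 by less than that error again. It was below 0 under each alternative, down to -0.64 with spike-in centring.

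*Pdk4*, the kinase that shuts pyruvate dehydrogenase and spares glucose, had intensities of 1863 (*Pnpla1*+/+) and 1941 (*Pnpla1*-/-) at chr6:5433441-5433500. The scaled difference was 0.34, but the raw intensities differed by only 0.06 and spike-in centring turned the sign, to -0.02. *Plin2*, a coat protein of lipid droplets, had intensities of 7433 and 6467 at chr4:86302847-86302906. Its difference of 0.08 was within the scanner error, it became -0.20 without scaling and -0.28 with spike-in centring, and 82.7% of genes had a larger difference in size.

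*Cpt1a*, the gatekeeper of mitochondrial fatty acid import, was the member with the lowest difference, and both of its probes gave the same direction. The probe at chr19:3385374-3385433 was spotted 10 times, with intensities from 3385 to 3920 in *Pnpla1*+/+ and from 2038 to 2266 in *Pnpla1*-/- skin. These ranges did not overlap even before scaling, and the scaled difference was -0.50 ± 0.03 (SD over 10 spots), from -0.55 to -0.45. The second probe, at chr19:3384060-3384119, had intensities of 352 and 182 and a difference of -0.67. *Cpt1a* was below 0 under each alternative, between -0.86 with spike-in centring and -0.43 with cyclic loess, and 10.9% of all genes had a lower difference.

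**Figure D2:**
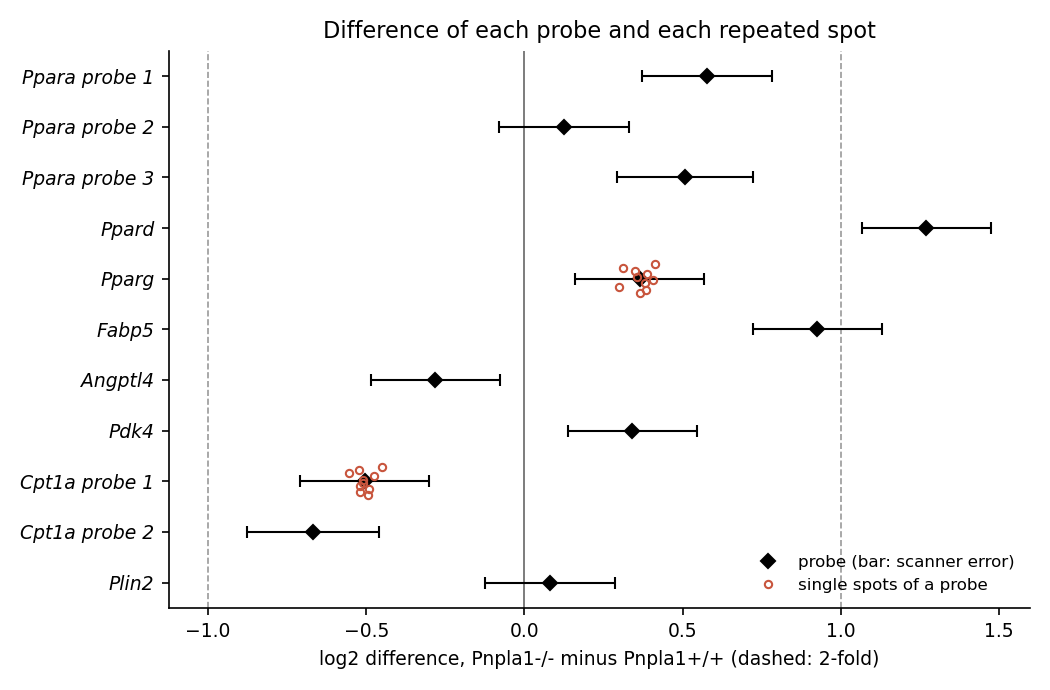
Log2 difference (*Pnpla1*-/- minus *Pnpla1*+/+) of each member probe, with the scanner error combined from both arrays as a bar. For the probes of *Pparg* and *Cpt1a* that were spotted 10 times, each spot is an open circle. The *Ppard* probe lies at 1.27, past the dashed 2-fold line, both *Cpt1a* probes lie below 0 (-0.50 and -0.67), and the bar of *Plin2* and of 1 *Ppara* probe crosses 0.

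Over the 8 members, the median difference was 0.35, with 6 above 0 and 2 below, against a median of -0.01 over all 20683 genes. The 3 receptors had differences of 0.37 to 1.27, and the 5 other genes had a median of 0.08 and a range from -0.50 to 0.93. Of those 5, none reached 2-fold in either direction. The scaling moved these counts: left unscaled or centred on the 9 measured spike-in probes, the median of all genes shifted by -0.28 and -0.36, and the number of members above 0 was 5 and 4. The split of all 2-fold differences shifted as well, from 68.8% higher after scaling to 39.7% unscaled and 31.8% with spike-in centring.

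**Figure D3:**
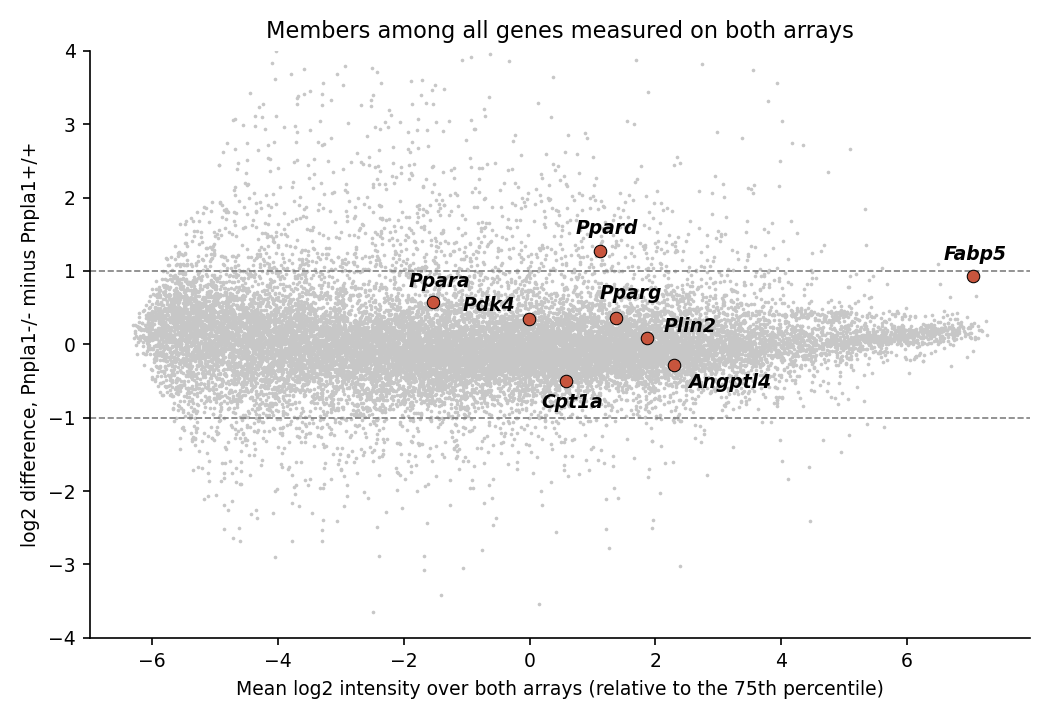
Log2 difference against mean log2 intensity for the 20683 genes measured on both arrays (grey points, 83 of them outside the axis limits of 4 in either direction), with the 8 members in red and 2-fold marked by dashed lines. *Ppard* (1.27) lies above the 2-fold line, *Fabp5* (0.93) lies just under it at the bright end where the cloud is narrow, and the other 6 lie within the cloud between -0.50 and 0.58.

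**Figure D4:**
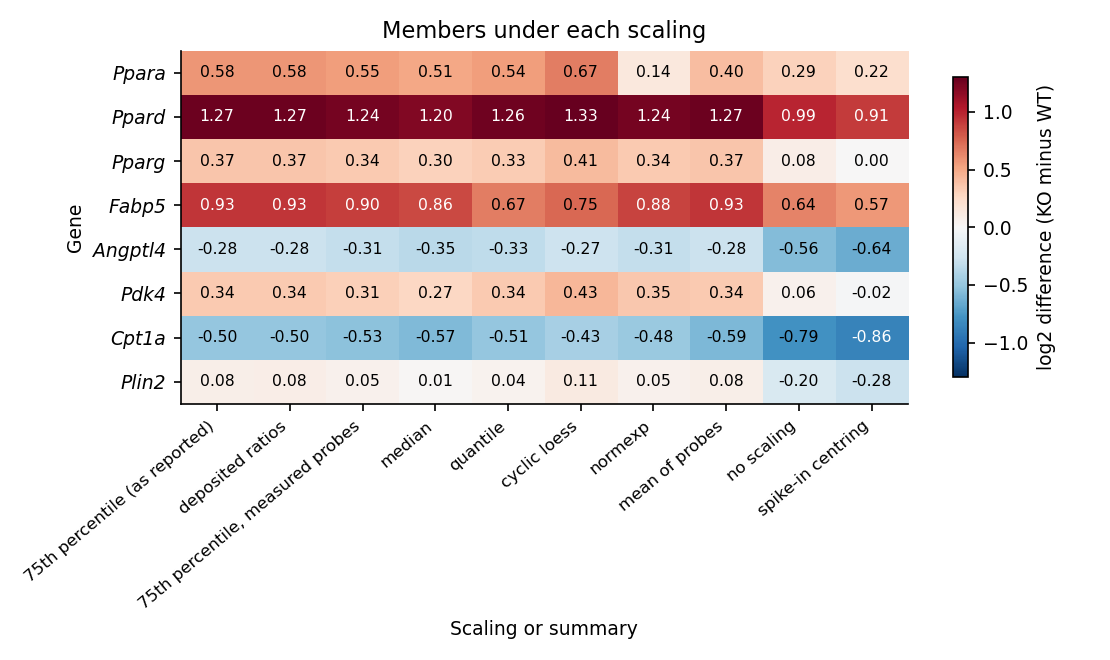
Log2 difference of each member (rows) as reported and under 9 alternative scalings or summaries (columns), printed in each cell and coloured from blue (lower in *Pnpla1*-/-) to red (higher). *Ppard* and *Fabp5* stay above 0 and *Angptl4* and *Cpt1a* below 0 in each column, while *Plin2* turns from 0.08 to -0.20 without scaling and to -0.28 with spike-in centring, and *Pdk4* to -0.02 with spike-in centring.

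The partners with which PPARs work on DNA were read next. *Rxra* had 2 probes, at -0.18 and 0.26, *Rxrb* stood at 0.02 and the 2 probes of *Rxrg* at 0.04 and 0.29, so no direction is given for the RXRs. Of the 15 partners, coactivators and corepressors, 2 were at least 2-fold higher and none lower, beside 5.65% and 2.56% of all genes. The median of 0.04 turned to -0.32 with spike-in centring. Both were PGC-1 coactivators, which drive mitochondrial gene programmes together with PPARs. *Ppargc1a* had intensities of 538 (*Pnpla1*+/+) and 1031 (*Pnpla1*-/-), a difference of 1.22, with 1.56 on its second probe. *Ppargc1b* went from 267 to 467, a difference of 1.09. With spike-in centring these were 0.86 and 0.73. The 2 probes of the coactivator *Ncoa3* disagreed, at 0.24 for the brighter and -2.75 for the other, a gene singled out after its values were seen.

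The wider set of PPAR target genes was read the same way. The list of fatty acid oxidation genes holds 28 genes besides *Cpt1a*, of which 24 were measured on both arrays. One, *Cyp4a10*, a fatty acid omega-hydroxylase that is a classical PPAR-alpha target, was at least 2-fold higher, with intensities of 123 (*Pnpla1*+/+) and 222 (*Pnpla1*-/-) and a difference of 1.13. It was dim, its second probe gave 0.49, and it was under 2-fold unscaled (0.85), with spike-in centring (0.77) and with normexp (0.86). None of the 24 was 2-fold lower. *Cyp4a14* and *Vnn1* were not well above background on either array. *Cyp4a12a* was so only in *Pnpla1*-/- skin, and *Fgf21* only in *Pnpla1*+/+ skin (at least 1.11-fold lower). The *Cyp4a12a* intensities were nearly equal, 23.6 (*Pnpla1*+/+) and 23.7 (*Pnpla1*-/-). Its scaled bound of 1.20-fold higher thus rests on the scaling, and no direction is given for it. The median of the list was 0.14, and it turned to -0.22 with spike-in centring.

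Of 22 other genes of lipid uptake and storage, 20 were measured on both arrays, 3 of them at least 2-fold higher and none lower, and the median was 0.10. *Gk*, glycerol kinase, listed on the array as Gyk, had the largest difference, with 186 in *Pnpla1*+/+ and 1849 in *Pnpla1*-/- skin, a difference of 3.60. *Cidea*, a lipid droplet protein of brown fat and sebaceous glands, went from 3551 to 8941, a difference of 1.61. *Pck1*, whose product makes glycerol phosphate for triglycerides in fat, had a difference of 1.09, which was under 2-fold unscaled (0.81) and with spike-in centring (0.73). Others stood near 0, such as the fatty acid transporter *Cd36* at -0.21 and the lipase *Lpl* at 0.01. Taken over both lists, 4 of 44 measured target genes (9.09%) were at least 2-fold higher, beside 5.65% of all genes, and 77.3% lay within 0.5 of 0, beside 75.2% of all genes. With spike-in centring *Gk* and *Cidea* alone of these 4 stayed past 2-fold, as did 3.40% of all genes.

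Genes reported as PPAR-delta targets in keratinocytes and wounds were read as a list of their own. Of 10 genes, all measured on both arrays, 5 were at least 2-fold higher, beside 5.65% of all genes, none was 2-fold lower and the median was 1.08, or 0.72 with spike-in centring. *Sprr1b*, a cornified envelope precursor, had intensities of 5644 (*Pnpla1*+/+) and 101699 (*Pnpla1*-/-), a difference of 4.45. *Hbegf*, a growth factor for keratinocytes, went from 1449 to 7197, a difference of 2.59. *Lrg1*, *Il1rn* and *Stat3* were the others, at 2.19, 1.89 and 1.19, and *Stat3* was at 0.83 with spike-in centring. *Abca12*, the lamellar body lipid transporter, was at 0.96. *Ilk*, integrin-linked kinase, stood at -0.40, *Pdpk1* at 0.47 and *Tgfb1* at 0.17. *Sprr1b* and *Hbegf* were named by the study from these arrays, and several of the 10 genes also respond to inflammation or injury, so the list is not independent evidence of a direction for PPAR-delta targets.

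**Figure D5:**
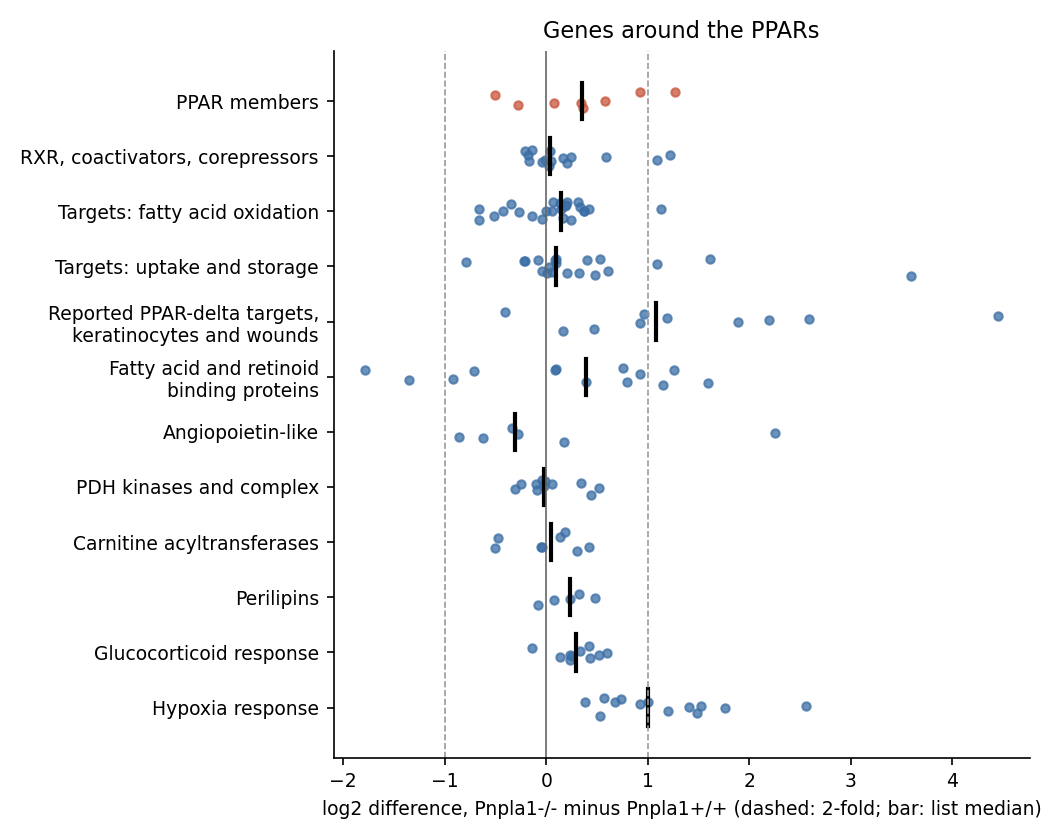
Log2 difference (*Pnpla1*-/- minus *Pnpla1*+/+) of each gene measured on both arrays in 12 gene lists, with a black bar at the median of each list and dashed lines at 2-fold. The medians of fatty acid oxidation (0.14) and uptake and storage genes (0.10) lie near 0 and fall below it with spike-in centring, while the 10 reported PPAR-delta targets of keratinocytes and wounds (1.08) and the 13 hypoxia response genes (0.999) reach about 2-fold, or 0.72 and 0.64 with spike-in centring.

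The paralogs of each member gave a frame for its value. Among fatty acid and retinoid binding proteins, *Fabp5* exceeded *Fabp4*, the adipocyte form, by 0.83 and *Fabp3* by 0.84, which stood at 0.10 and 0.08. *Fabp6* at 0.80 and *Fabp2* at 0.76 were close to *Fabp5*, both on dim probes (233 and 35.5 in *Pnpla1*+/+ skin). *Fabp12* was at 0.39 and *Fabp7* at -0.71, while *Fabp1*, *Fabp9* and *Pmp2* were not well above background on either array. All 5 genes of the list past 2-fold were retinoid carriers. *Crabp2*, which delivers retinoic acid to its receptor, went from 9993 in *Pnpla1*+/+ to 18248 in *Pnpla1*-/- skin, a difference of 1.15. *Crabp1* went the other way, from 938 to 224, a difference of -1.78. *Rbp2*, a carrier of retinol inside cells, was at 1.59, and *Rbp7* was at -1.35. In the list of 16, of which 13 were measured on both arrays, 3 were 2-fold or more higher and 2 were 2-fold or more lower, beside 5.65% and 2.56% of all genes, and with spike-in centring *Crabp2* (0.79) was under 2-fold.

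In the angiopoietin-like family, *Angptl4* and its partner in lipoprotein lipase control, *Angptl8*, had differences of opposite sign. *Angptl8*, listed on the array as Gm6484, had intensities of 550 (*Pnpla1*+/+) and 2161 (*Pnpla1*-/-), a difference of 2.26 and 2.54 above that of *Angptl4*. *Angptl2* was at -0.63, *Angptl7* at -0.86 and *Angptl6* at 0.18. The *Angptl7* probe was dim (87.6 and 39.6), and normexp took its value to -0.23. The other pyruvate dehydrogenase kinases were at 0.45 (*Pdk1*), -0.10 (*Pdk2*) and -0.31 (*Pdk3*), and none of the 11 genes of that list was past 2-fold. The difference of *Pdk4* was thus 0.10 below that of *Pdk1*, which is induced by hypoxia.

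*Cpt1a* stood below the other carnitine acyltransferases on the same arrays, by 0.69 against the muscle form *Cpt1b*, by 0.46 against *Cpt1c* and by 0.93 against *Cpt2*, which had a difference of 0.42. Of the 8 genes of that list, 4 were above 0 and 4 below, and none was past 2-fold. *Slc22a5*, a carnitine transporter in the list, was close to *Cpt1a*, at -0.47. The perilipins ranged from -0.08 (*Plin1*, of adipocytes) over 0.23 (*Plin3*) and 0.32 (*Plin4*) to 0.48 (*Plin5*), and *Plin2* was within 0.41 of each of them. Lipolysis releases fatty acids that can act as PPAR ligands. Of its 8 genes, *Pnpla1*, the knocked-out gene itself, was the only one past 2-fold, towards lower values, beside 2.56% of all genes. *Abhd5*, the cofactor of the lipase gene *Pnpla2*, was at 0.81 while *Pnpla2* was at -0.06.

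*Angptl4* and *Pdk4* also answer to glucocorticoids and, for *Angptl4* and *Plin2*, to hypoxia, so genes of these responses were read beside them. None of 10 glucocorticoid response genes was past 2-fold, and their median was 0.30 with a range from -0.14 (*Per1*) to 0.59 (*Sgk1*), and -0.06 with spike-in centring. All 13 hypoxia response genes were above 0, as were 10116 of all 20683 genes. Of the 13, 6 were at least 2-fold higher, beside 5.65% of all genes. With spike-in centring the median of 0.999 was 0.64, and *Vegfa* (1.20) was under 2-fold, at 0.84. *Egln3*, an oxygen-sensing hydroxylase, went from 4390 in *Pnpla1*+/+ to 21244 in *Pnpla1*-/- skin, a difference of 2.56, and *Pfkfb3*, an activator of glycolysis, was at 1.76. The part of either response in the member values was not tested.

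Markers of other cell types were also read. Beside the 5.65% of all genes at least 2-fold higher, 2 of 9 adipocyte markers measured on both arrays were so, *Ucp1* (99.2 in *Pnpla1*+/+ and 2246 in *Pnpla1*-/- skin, a difference of 4.78) and *Cidea*. Normexp took *Ucp1* to 3.98. *Adipoq*, which marks white and brown adipocytes alike, was at 0.06, *Plin1* at -0.08, *Cidec* at 0.10 and *Dio2* at -0.43, while *Retn* was at 0.87, *Cfd* at 0.58 and *Lipe* at 0.56, and *Lep* was not well above background. The median of the 9 was 0.56. The list's summed scaled intensity was 53.1 in *Pnpla1*+/+ and 76.1 in *Pnpla1*-/- skin. It was led by *Cfd*, the brightest on both, and does not describe the other markers. All 8 macrophage markers were above 0, as were 10116 of all 20683 genes, and the median was 0.86. Of the 8, 3 were at least 2-fold higher, beside 5.65% of all genes: *Lyz2* (2.35), *Adgre1* (1.24) and *Cd163* (1.13). With spike-in centring *Adgre1* (0.88) and *Cd163* (0.77) were under 2-fold. The summed scaled intensity of the macrophage markers was 14.3 and 25.0, *Csf1r* being the brightest. Among 8 neutrophil markers, 7 were measured on both arrays, with a median of 3.48, and 4 of them were at least 2-fold higher, beside 5.65% of all genes. *S100a8* and *S100a9*, which stressed keratinocytes make as well, stood at 6.26 and 4.67, the granule gene *Mpo* at 4.35 and *Retnlg* at 3.48. The *Mpo* probe was dim in *Pnpla1*+/+ skin (32.25), and normexp took its value and the list median to 2.98. *Ly6g* was at 0.42, the granule gene *Elane* at 0.05 and *Csf3r* at 0.04. The summed scaled intensity, 49.5 and 271, was led by 1 or 2 bright probes, *Csf3r* in *Pnpla1*+/+ skin and *S100a9* and *S100a8* in *Pnpla1*-/- skin, and so does not describe the other markers. *Cxcr2* was well above background only in *Pnpla1*-/- skin, at least 59.8-fold higher. Of 9 sebaceous gland markers *Cidea* alone was past 2-fold, and the median was 0.15 (-0.21 with spike-in centring). Of the 9, 5 were above 0, among them *Elovl3* at 0.55, *Fa2h* at 0.41 and *Mgst1* at 0.33. The 4 below 0 included *Awat1* at -0.17, *Awat2* at -0.21 and *Far2* at -0.12. The sum over the 9 sebaceous markers, 63.9 and 48.4, was led by *Krt79*, at -0.78, and does not describe the other markers. Of the keratinocyte markers, *Krt14* was at 1.35 and *Krt15*, of basal and hair follicle cells, at -1.67, with sums of 554 and 593. The summed intensities were 227 and 260 for skeletal muscle (*Myh8* the brightest), 341 and 323 for fibroblast (*Col1a2*) and 7.47 and 8.38 for endothelial markers (*Cldn5*), and none of these 20 genes was past 2-fold. The part of these cells in the member differences was not tested.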

How the data were processed

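Newborn skin RNA was measured on 1-colour Agilent mouse arrays, 1 per genotype, each with a pool of 6 animals. The authors scanned the arrays and extracted them with Agilent Feature Extraction 11.5.1.1 (submitters' processing notes), and deposited linear intensity values per spot, background-subtracted and not scaled between arrays, on probe coordinates of mm9. They also deposited a ratio table, the intensity divided by 1 factor per array (2109 and 1734). Both arrays shared a slide and a scan, so slide and scan do not differ between genotypes.

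From the deposited intensities, the 75th percentile over all spots but controls was taken for each array, and its log2 subtracted from the log2 intensity, in Python 3.11.15 (numpy 2.4.6, pandas 2.3.3). Spots flagged as outliers (138 in *Pnpla1*+/+, 82 in *Pnpla1*-/-) were dropped from both arrays. Repeated spots were averaged as log2 values. Each gene was read from its brightest probe among those well above background on both arrays. Where there was none, probes well above background on 1 array were used, and otherwise any probe. A gene was measured on both arrays if that probe was well above background on each (20683 of 30133 genes); 1123 were so in *Pnpla1*-/- skin alone, 592 in *Pnpla1*+/+ skin alone and 7735 on neither. For a gene measured on 1 array only, a fold is at least that of the bright signal over whichever is higher, the dim signal itself or the lowest one called well above background on that array. Of 39429 probe names, 31456 were brought up to date through RefSeq (GRCm38.p6) and 7973 kept. Exon and UTR annotation on mm9 was not used here. Some list genes are not reported here by name.

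No test was made, and the number of arrays limits the precision. A difference of at least 2-fold was counted, and a list was described by its counts and median. Named genes were the 8 members with each probe, and from each other list the 2 largest differences past 2-fold in each direction and paralogs or partners of members; further genes are given as values near 0 or as markers. Members, lists and this rule were chosen with earlier results of these data known. Alternatives were other scalings, background correction, summaries and thresholds of 1.5-fold and 3-fold, with quantile, cyclic loess and normexp (offset 50) from limma 3.58.1 in R 4.3.3. The steps were checked on simulated data.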

Additional observations from a re-analysis of the deposited data

How the results depend on the processing

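A member difference was taken as unmoved if it changed by less than 0.0783, the range that covers 95% of repeated spots at the technical SD. *Ppard*, *Fabp5*, *Pparg* and *Ppara* stayed above 0 and *Angptl4* and *Cpt1a* below 0 under each alternative run, while *Plin2* and *Pdk4* did not keep their sign. Without scaling the values were 0.29 (*Ppara*), 0.99 (*Ppard*), 0.0831 (*Pparg*), 0.64 (*Fabp5*), -0.56 (*Angptl4*), 0.0596 (*Pdk4*), -0.79 (*Cpt1a*) and -0.20 (*Plin2*). With spike-in centring they were 0.22 (*Ppara*), 0.91 (*Ppard*), 0.00481 (*Pparg*), 0.57 (*Fabp5*), -0.64 (*Angptl4*), -0.0187 (*Pdk4*), -0.86 (*Cpt1a*) and -0.28 (*Plin2*); the spike-in probes themselves ranged from -0.21 to 0.52 around a mean of 0.36 after scaling. Both settings shift all genes by 1 amount by construction. Quantile normalization gave 0.67 for *Fabp5*, and cyclic loess 0.67 for *Ppara*, 0.75 for *Fabp5* and 0.43 for *Pdk4*. Normexp gave 0.14 for *Ppara*. The mean over probes gave 0.40 for *Ppara* and -0.59 for *Cpt1a*, and the single other probes that moved gave 0.13 and -0.67, an alternative added after seeing the data. The cause of the moves under quantile, cyclic loess and normexp was not tested.

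Of all genes, 1169 (5.65%) were past 2-fold higher and 530 (2.56%) past 2-fold lower. Unscaled, 1184 were lower (5.72%), and with normexp 307 (1.48%). Spike-in centring gave 703 higher (3.40%) and 1505 lower (7.28%). Without the filter on dim probes, which adds genes near background, 3041 of 30133 genes (10.1%) were higher and 3.67% lower. At 1.5-fold the shares were 11.6% and 8.66%, and at 3-fold 2.64% and 0.793%. Of 20 list medians, 8 kept their sign under each alternative. All 34 other list genes past 2-fold kept their sign, and 23 of them stayed past 2-fold. The slide as a block was not run, since both arrays were on 1 slide. No paired analysis was possible because each genotype has 1 array. Dim probes limit what can be said of *Angptl7*, *Cyp4a10*, *Cyp4a12a*, *Cyp4a14*, *Vnn1*, *Fgf21*, *Mpo* and *Ucp1*.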

Other observations

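After *Ucp1* and *Cidea* were seen, 12 genes of brown adipocytes, the fat cells that burn lipid for heat, were listed and read together. *Ucp1*, which uncouples their mitochondria, was at 4.78, *Cidea* at 1.61 and *Ppargc1a* at 1.22. These 3 of 12 were at least 2-fold higher, beside 5.65% of all genes. Of the 3, 2 had prompted the list, and *Ppargc1a* was already in the list of coactivators above. The share of 3 in 12 is therefore not an independent reading. *Ppargc1a* was under 2-fold with spike-in centring (0.86), and normexp took *Ucp1* to 3.98. *Slc36a2*, an amino acid transporter of brown adipocytes, was at 0.89, and the respiratory chain genes *Cox7a1* and *Cox8b* were at 0.52 and 0.46. *Elovl3* was at 0.55, *Prdm16*, a regulator of brown fat identity, at 0.21, and *Dio2*, which activates thyroid hormone in brown fat, at -0.43. *Zic1* had the lowest difference, at -0.96 on its brighter probe, with -0.42 on the other. The list median was 0.50, and the summed scaled intensity of the 12 genes was 14.3 in *Pnpla1*+/+ and 20.9 in *Pnpla1*-/- skin, with *Cox8b* the brightest on both. No test was made of these values.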
